A study of Homo sapiens with 6 samples.

Results

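In siCONT-transfected HSC3 cells, 5051 H3K4me3 regions lay at the transcription start site (TSS) of a protein-coding gene without an overlapping H3K27ac region. They were taken from 58582 H3K4me3 regions on chromosomes 1 to 22 and X. A region was counted when it was narrower than 3000 bp, overlapped the 1 kb on either side of an annotated TSS and shared no base with any of the 19705 control H3K27ac regions. Of 20554 H3K4me3 regions under 3000 bp at coding TSSs, 15503 overlapped H3K27ac and 5051 did not. Most of the latter, 4187 regions, were at genes that carried H3K27ac within 1 kb of a TSS all the same. The other 864 regions were at 558 genes with no H3K27ac region within 1 kb of any TSS, and these genes are called poised-like below. For 18 of the 558 genes, the strongest of these regions also lay at a TSS of an acetylated gene. The members were chosen by these control calls, the presence of H3K4me3 and the absence of H3K27ac, and the name stands for the rule alone, because the repressive mark H3K27me3 was not measured.

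HSC3 is an established cell line of oral squamous cell carcinoma (OSCC). Cells received a control siRNA (siCONT) or an siRNA against the long noncoding RNA DLEU1 (siDLEU1, named siDLEU1-2 by the study), and chromatin was taken 72 h later. ChIP-seq was done with a polyclonal antibody to H3K27ac and a monoclonal antibody to H3K4me3. There was 1 library for each siRNA and each mark, from 1 cell line and 1 siRNA per arm, so the values are given without replicates and without p-values.

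H3K4me3 is laid down at the starts of genes by the SET1 and MLL methyltransferases, which are drawn to unmethylated CpG-rich DNA. H3K27ac is written by the acetyltransferases p300 and CBP and marks active promoters and enhancers, so the pair together is the usual picture of an active promoter. H3K4me3 without acetylation is best known from CpG-rich promoters of developmental regulators, where Polycomb holds the gene silent but ready.

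The bases at these starts show a feature in which regions without acetylation differed from those with it, their CpG content. The starts of 4 poised-like genes and 2 acetylated starts are printed, each as the 200 bases before a TSS in GRCh37 (hg19), written 5′ to 3′ on the strand of the gene, with every CpG in capitals. TNFSF15 (chr9:117568320-117568519, minus strand) and S100A9 (chr1:153330130-153330329, plus strand) are upstream of all transcripts of the gene. IL6 (chr7:22766566-22766765, plus strand) is upstream of the main start and in an intron of longer transcripts, and KRT7 (chr12:52626104-52626303, plus strand) is upstream of the first of its annotated starts. EGFR (chr7:55086510-55086709, plus strand) is upstream of all transcripts, and ZNF217 (chr20:52210379-52210578, minus strand) is in an intron of longer transcripts.
TNFSF15: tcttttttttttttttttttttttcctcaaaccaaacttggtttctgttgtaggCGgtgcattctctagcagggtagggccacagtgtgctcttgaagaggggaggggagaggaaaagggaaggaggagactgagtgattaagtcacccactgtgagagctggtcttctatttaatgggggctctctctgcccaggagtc
S100A9: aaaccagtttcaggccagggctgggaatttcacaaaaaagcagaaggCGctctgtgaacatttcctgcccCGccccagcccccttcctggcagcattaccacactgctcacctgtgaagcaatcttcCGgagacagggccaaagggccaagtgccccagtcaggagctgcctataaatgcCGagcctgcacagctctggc
IL6: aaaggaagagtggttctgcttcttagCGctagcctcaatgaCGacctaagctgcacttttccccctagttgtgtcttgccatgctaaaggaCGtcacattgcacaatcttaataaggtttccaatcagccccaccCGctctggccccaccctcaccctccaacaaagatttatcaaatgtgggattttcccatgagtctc
KRT7: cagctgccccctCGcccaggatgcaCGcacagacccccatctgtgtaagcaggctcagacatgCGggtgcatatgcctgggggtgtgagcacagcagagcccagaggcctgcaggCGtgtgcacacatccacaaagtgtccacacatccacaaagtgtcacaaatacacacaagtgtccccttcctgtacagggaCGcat
EGFR: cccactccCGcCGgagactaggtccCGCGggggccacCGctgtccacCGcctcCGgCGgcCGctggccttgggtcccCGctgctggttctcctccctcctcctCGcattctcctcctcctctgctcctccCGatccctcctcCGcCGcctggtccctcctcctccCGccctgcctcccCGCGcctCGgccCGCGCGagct
ZNF217: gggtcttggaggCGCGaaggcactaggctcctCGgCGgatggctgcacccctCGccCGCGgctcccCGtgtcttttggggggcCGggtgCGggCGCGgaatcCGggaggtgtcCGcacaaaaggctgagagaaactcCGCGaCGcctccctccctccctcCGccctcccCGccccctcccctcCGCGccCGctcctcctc
The 4 unacetylated starts held 1, 4, 4 and 5 CpGs in the order printed, and the acetylated starts of EGFR and ZNF217 held 21 and 22. The observed CpG number divided by that expected from the C and G content was 0.0969 at TNFSF15, 0.247 at S100A9, 0.364 at IL6 and 0.297 at KRT7, against 0.87 at EGFR and 0.835 at ZNF217. The start printed for KRT7 is not its canonical TSS. From 250 bp before to 50 bp after the canonical TSS of KRT7, the ratio was 0.732. Of the motifs spelled out further on, the S100A9 start held a TATA box 29 bases, an ETS site 77 bases and a GC box 131 bases before the TSS. The IL6 start held a CCAAT box 80 bases before it, EGFR held a GC box at 36 bases and ZNF217 GC boxes at 32 and 41 bases.

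Each deposited list gives the fold enrichment of a region over its local background, which cannot be compared between lists. Regions were therefore ranked within their list, from 100 for the strongest to near 0 for the weakest, and this rank is the percentile used below. The number of fragments at a summit was recovered from the fold and the p of each region and matched every region of the 4 lists. Library depth was estimated from the most common local background, the scale of the fragment count and the shortest region, taken as the fragment length. By this estimate, the siDLEU1 H3K4me3 library was 0.787 times as deep as the control one, and the siDLEU1 H3K27ac library 1.37 times as deep. Absence of a region means that none was called, not that the mark was absent. All 12 squamous epithelium markers examined, among them KRT5, TP63 and CDH1, carried both marks in control cells. Acetylation was called at 1 of 6 fibroblast markers, 1 of 5 blood markers, 0 of 3 endothelial markers and 1 of 4 neuronal markers. PECAM1, also on the endothelial marker list, has no values here. VWF, the clotting factor of endothelium, and SYP, a synaptic vesicle protein, were themselves poised-like, with percentiles of 78 and 18.7.

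The unacetylated regions were weak and narrow. Their median percentile in the control list was 39.2, their median width 431 bp and their median summit 39 fragments. Regions of the same kind with H3K27ac had medians of 74.6, 753 bp and 79 fragments. Regions at poised-like genes (38.6, 460 bp) and regions at genes acetylated elsewhere (39.2, 426 bp) hardly differed in these medians. The unacetylated H3K4me3 regions under 3000 bp that lay away from coding TSSs, 33545 in number, had nearly the same medians, 37.4, 448 bp and 38 fragments. A strong minority stood out, since 91 of the 864 regions at poised-like genes, 10.5%, were in the strongest quintile of the whole control list, against 41% of the acetylated regions. Absence of acetylation and strength come from the same control libraries that chose the regions, so these values are a description.

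**Figure D1:**
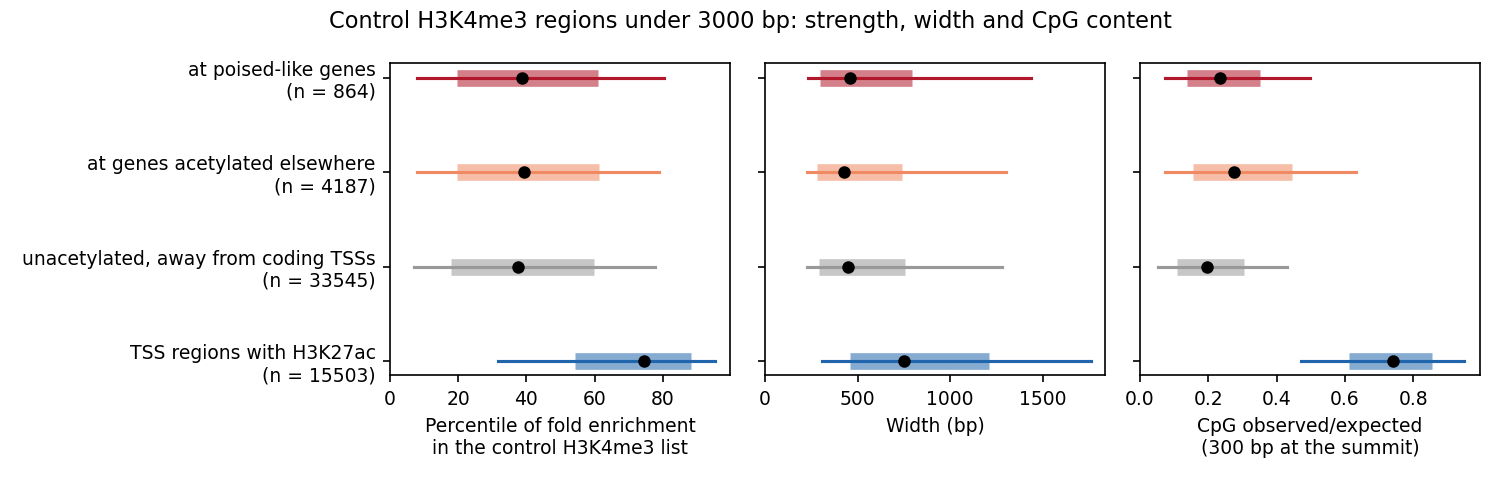
Percentile of fold enrichment, width in bp and CpG observed over expected of control H3K4me3 regions under 3000 bp in 4 groups. Dots are medians, thick bars span the 25th to the 75th percentile of the regions and thin lines the 10th to the 90th percentile. The 3 unacetylated groups lie together at medians of 37.4 to 39.2 in strength, while the acetylated group stands at 74.6, and the CpG medians run from 0.195 to 0.276 without acetylation and reach 0.74 with it.

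The limits of the rule cut through a continuum. The widest regions counted were 2996 bp, at ALDH3B1 and at the shared start of LTB4R2, LTB4R and CIDEB, and the first left out for width was 3006 bp, near SUSD6, at 30.8-fold against 9.59-fold at ALDH3B1. In all, 7 counted regions lay 1 to 10 bp from an H3K27ac region, and 7 regions were left out for an overlap of 10 bp or less. The distance to acetylation split the members. Regions at poised-like genes lay a median of 35400 bp from the nearest H3K27ac region, and 80.6% were more than 10 kb away. Of the regions at genes acetylated elsewhere, 34.5% had H3K27ac within 500 bp and 36.9% had none within 10 kb.

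In position, 37.6% of the regions at poised-like genes had their summit within 250 bp of a TSS, against 26.7% of those at genes acetylated elsewhere and 57.9% of the acetylated regions. Summits of unacetylated regions were denser at the starts of genes without H3K27ac than outside all coding TSS windows, at 20.7 per Mb of window against 11.8 per Mb, a ratio of 1.76, with unsequenced gaps counted in the length. For 345 of the 558 poised-like genes, 61.8%, the strongest region touched the window of the canonical TSS, and for the rest it lay at an alternative start. The latter included the regions at ABO, the blood group glycosyltransferase, SLC15A2, a peptide transporter, and BMP7.

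CpG content was not used by the rule. In the 300 bp centred on the summit, the median observed over expected CpG was 0.233 at poised-like genes, 0.276 at genes acetylated elsewhere and 0.74 in acetylated regions. It was 0.195 in unacetylated regions away from coding TSSs. With CpG-rich taken as a ratio of at least 0.6 and a GC content of at least 50%, 5.9% of the regions at poised-like genes were CpG-rich (95% Wilson interval 4.52 to 7.68%). The share was 8.69% (7.88 to 9.59%) at genes acetylated elsewhere, 72.7% (72 to 73.4%) with acetylation and 1.92% (1.78 to 2.08%) away from coding TSSs. These intervals, like all below, cover the counting of regions or genes only. The gap was there at matched strength, because in the strongest quintile of fold among the 20554 TSS regions 2.27% of 44 regions at poised-like genes were CpG-rich, against 77.8% of the acetylated ones.

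The promoters of the genes told the same. In the 250 bp before to 50 bp after the canonical TSS, the median CpG ratio was 0.294 for the 558 poised-like genes, 0.862 for 11717 genes with both marks and 0.363 for 7159 genes with neither. CpG-rich promoters made up 21.1% (18 to 24.7%) of poised-like genes, 86.8% (86.2 to 87.4%) of genes with both marks and 31.4% (30.3 to 32.5%) of genes with neither. Poised-like genes therefore fell below even the unmarked genes in this share. The canonical TSS had the strongest region in its window at 345 of the 558 genes, and the share was not split by this. The strongest region itself was CpG-rich in 44 cases. By either measure, the CpG-rich promoters known for H3K4me3 without acetylation were a minority here. They included the promoters of SYT7, a calcium sensor of exocytosis (promoter CpG ratio 1.18), SYP (0.918) and ABO (0.856), in which the strongest region of ABO lay at another start.

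A set of 11 short motifs was searched on both strands of the 300 bp. The core promoter motifs were the GC box, spelled GGGCGG, the CCAAT box, spelled CCAAT, and the TATA box, spelled TATAAA. The sites of housekeeping factors were CCGGAAG for ETS factors, GCATGCGC for NRF1, AAGATGGC for YY1 and CACGTG for MYC. The sites of regulated factors were TTCAGCACC for the left arm of RE1, GAAANNGAA for the interferon-stimulated response element, TGACGTCA for the cAMP response element and TGANTCA for AP-1. The GC box, ETS, NRF1, MYC and cAMP letters themselves hold a CpG, and no motif holds another. The GC box was in 13.9% of the regions at poised-like genes, 51.7% of acetylated regions and 42.7% of all 20554. The CCAAT box stood in 28.6% against 18.5% (20.9% of all), TATAAA in 9.49% against 3.94% (5.96% of all) and the AP-1 site in 10.3% against 3.39% (4.76% of all). In unacetylated regions away from coding TSSs these 3 were in 31%, 15.7% and 10.7%. The median GC content of the 300 bp was 54% at poised-like genes, 64.3% in acetylated regions and 48.3% away from coding TSSs. Its part in these shares was not tested. The letters of the interferon element were in 7.29% against 6.6%, with intervals that overlap (5.74 to 9.22% and 6.22 to 7%). At the promoters of the genes the order differed for the CCAAT box, which was in 30.3% (26.6 to 34.2%) of poised-like genes, 36.4% (35.5 to 37.3%) of genes with both marks, 35.2% of unmarked genes and 35.9% of all. The TATA box was in 14% (11.3 to 17.1%) of poised-like genes, 4.92% of genes with both marks and 17.8% (16.9 to 18.7%) of unmarked genes. The GC box was in 38.4%, 75.5% and 37.6% of these groups. AP-1 letters were in 14% (11.3 to 17.1%) of poised-like genes, 7.82% (7.22 to 8.47%) of unmarked genes and 3.7% (3.37 to 4.05%) of genes with both marks, and in 5.43% of all coding genes.

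Poised-like genes made up 558 of 20098 protein-coding genes. They were 4.54% of the 12294 genes with control H3K4me3 at a TSS, and each class below is set beside that percent, which the rule itself fixes. The strongest of them were ALDH3B2, an aldehyde dehydrogenase, and RP1L1, a photoreceptor protein, each at 31.3-fold, 186 fragments and percentile 99.2. In siDLEU1 cells they had percentiles of 70.1 and 95.9 with 145 and 121 fragments. They were followed by SERPINF1, an antiangiogenic serpin, at 30.6-fold and 8 regions at its starts, the most of any of these genes. ZP3, an egg coat glycoprotein, had 28.7-fold and TNFSF15, a TNF family ligand, 27.4-fold. ABO (26.7), APOBEC3H (24.4), an antiviral cytidine deaminase, SLC15A2 (24.2), the anchoring protein AKAP6 (23.5) and the galectin LGALS7B (23) completed the 10 strongest. Control and siDLEU1 fragments were 197 and 176 at SERPINF1, 170 and 143 at ZP3, 178 and 128 at ABO and 144 and 78 at APOBEC3H. They were 188 and 135 at SLC15A2, 186 and 156 at AKAP6 and 178 and 153 at LGALS7B. All 10 genes kept the region, with fewer fragments in the shallower siDLEU1 library. LGALS7B and LGALS7 are near-identical copies, so reads could be split between them. TNFSF15 also had one of the widest regions, 2976 bp at chr9:117566570-117569545 over its start, with 213 fragments in control and 162 in siDLEU1 cells. The leukotriene B4 receptors LTB4R and LTB4R2 shared one region of 2996 bp with the lipid droplet gene CIDEB. TRIM55 (2866 bp), a muscle ubiquitin ligase, CYP4B1 (2796 bp) and HSD17B3 (2627 bp), the testicular steroid enzyme, came next in width, with 100 and 54, 145 and 76, and 67 and 42 fragments. None of these genes had H3K27ac at a TSS in siDLEU1 cells.

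Keratin and cornified envelope genes had the highest poised-like share of marked genes among the classes with at least 10 marked genes. In this class, 16 of 182 genes had H3K4me3 at a TSS and 9 of them, 56.2% (33.2 to 76.9%), were poised-like. KRT15, a basal keratin, was the strongest, with a region of 1443 bp, 22.1-fold and 171 fragments in control cells and 157 in siDLEU1 cells. An H3K27ac region began 366 bp from the KRT15 region, outside the 1 kb window of the gene, and the siDLEU1 region, 4949 bp wide, also covered a stronger control region at percentile 99.6. KRT7, of simple epithelium, had 97 and 89 fragments, and KRTAP29-1, a hair keratin associated gene, 102 and 73. KRT16, of activated epidermis, had 56 and 58 fragments, KRT6B 35 and 59, and KRT6C 28 and 52. KRT80, KRT33A and KRT13 had 33, 28 and 24 control fragments and no overlapping region in siDLEU1 cells. KRT6B, KRT6C and KRT16 belong to near-identical families whose reads may be shared. Of the class, 7 genes carried both marks, KRT5, KRT14, KRT17 and KRT6A among them.

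Immune genes formed the largest group in number. Of 102 marked cytokines, chemokines and immune receptors, 22 were poised-like, 21.6% (14.7 to 30.5%). TNFSF15, IL6 and TNFSF13 led, at percentiles 98.2, 91 and 88.6. The region at IL6, an inflammatory cytokine, was 1212 bp wide (chr7:22765800-22767011), with its summit 6 bp before a TSS, 109 fragments in control and 92 in siDLEU1 cells. TNFSF13 (APRIL, a B cell ligand) had 131 and 80 fragments, and CCR3, the eotaxin receptor, 117 and 75. CXCL8, the neutrophil chemokine IL-8, was of middling strength with 45 and 38 fragments at chr4:74606099-74606818. IL7R, the interleukin-7 receptor, went the other way with 30 and 55. Of the 22 genes, 14 had H3K4me3 and 1, CXCL8, had H3K27ac at a TSS in siDLEU1 cells.

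Genes of excitable cells were also above the 4.54% of all. These shares are over marked genes, so a class with few acetylated genes can stand high. Over all coding genes, 558 were poised-like and 7159 had neither mark. These counts were 9 and 165 for keratins, 7 and 124 for neurotransmitter receptors and 9 and 146 for ion channels. Beside unmarked genes, poised-like genes were thus no more frequent in these classes than over all. The counts were 22 and 203 for immune genes, 16 and 157 for solute carriers, 7 and 74 for secreted morphogens and 6 and 74 for synaptic genes. These lay somewhat above the counts over all, the synaptic genes barely so. No interval was taken for them, so they do not set these classes apart. Neurotransmitter and neuropeptide receptors were poised-like in 7 of 19 cases, 36.8% (19.1 to 59%), led by the tachykinin receptor TACR2 (58 control fragments), and the purine receptors P2RX6 and P2RY6 (62 each). The dopamine receptor DRD2 had 38 fragments in control and 32 in siDLEU1 cells, at an alternative start. Ion channels were poised-like in 9 of 39 cases, 23.1% (12.6 to 38.3%), with the cation channel TRPV2 (56 and 50 fragments), the chloride channel CLCN1 (105 and 50) and KCNIP2 (45 and 22) in front. Synaptic and neuronal genes gave 6 of 33, 18.2% (8.61 to 34.4%). SYT8, a synaptotagmin, stood apart there with 214 control and 180 siDLEU1 fragments, while SYT15 had 91 and 39, and SYN3 had 28 and no siDLEU1 region.

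Secreted morphogens and their antagonists were poised-like in 7 of 51 cases, 13.7% (6.81 to 25.7%). BMP7 had 142 control fragments and no siDLEU1 region, GDF15 had 95 and 91, and SEMA4A had 73 and 37. Matrix genes gave 7 of 44, 15.9% (7.93 to 29.4%), all of middling or low strength: FBLN2, COL8A2, LOXL4, COL2A1, COL23A1, MMP7 and MMP9, at 31 to 44 fragments. Of these 7 genes, FBLN2 alone kept H3K4me3 at a TSS in the siDLEU1 list, against 73.7% of all 558 poised-like genes. The share was lower for weak regions in general, as given below. Cadherins gave 3 of 22, with CDH23, a hair cell tip link protein, strong at 156 and 142 fragments, PCDHGC5 at 37 and 27, and CDH26 at 27 and 21. Adhesion and orphan receptors gave 5 of 54, 9.26% (4.02 to 19.9%), led by ADGRF1 (34 and 32), ADGRF4 (29 and 46) and GPR62 (28 and 20). Solute carriers gave 16 of 179, 8.94% (5.58 to 14%), led by SLC15A2 (188 and 135), SLC34A1, a phosphate carrier (107 and 133), and SLC22A11 (51 and 45).

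Few developmental transcription factors were poised-like, but their intervals include the 4.54% of all. Of 52 homeobox genes with H3K4me3, 51 carried both marks and PAX8 alone was poised-like, 1.92% (0.34 to 10.1%), at an alternative start with 24 control fragments. Another 88 of the 166 homeobox genes had neither mark. Of 62 other developmental transcription factors, FOXN1, the regulator of hair and thymus epithelium, was the single poised-like gene, 1.61% (0.285 to 8.59%), with 93 and 72 fragments. C2H2 zinc finger genes gave 6 of 386, 1.55% (0.714 to 3.35%), below the 4.54% of all. They were led by ZFP57, an imprinting factor (81 and 86 fragments), ZNF750, a factor of epidermal differentiation (67 and 58), and ZNF566 (29 and no siDLEU1 region). Housekeeping classes gave none, with 0 of 161 ribosomal protein genes (0 to 2.33%) and 0 of 92 proteasome and complex I genes (0 to 4.01%). Histone genes gave 2 of 63, H2BC3 and H1-8, with 35 and 23 fragments. Olfactory receptors had 2 of 412 genes marked and none poised-like.

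**Figure D2:**
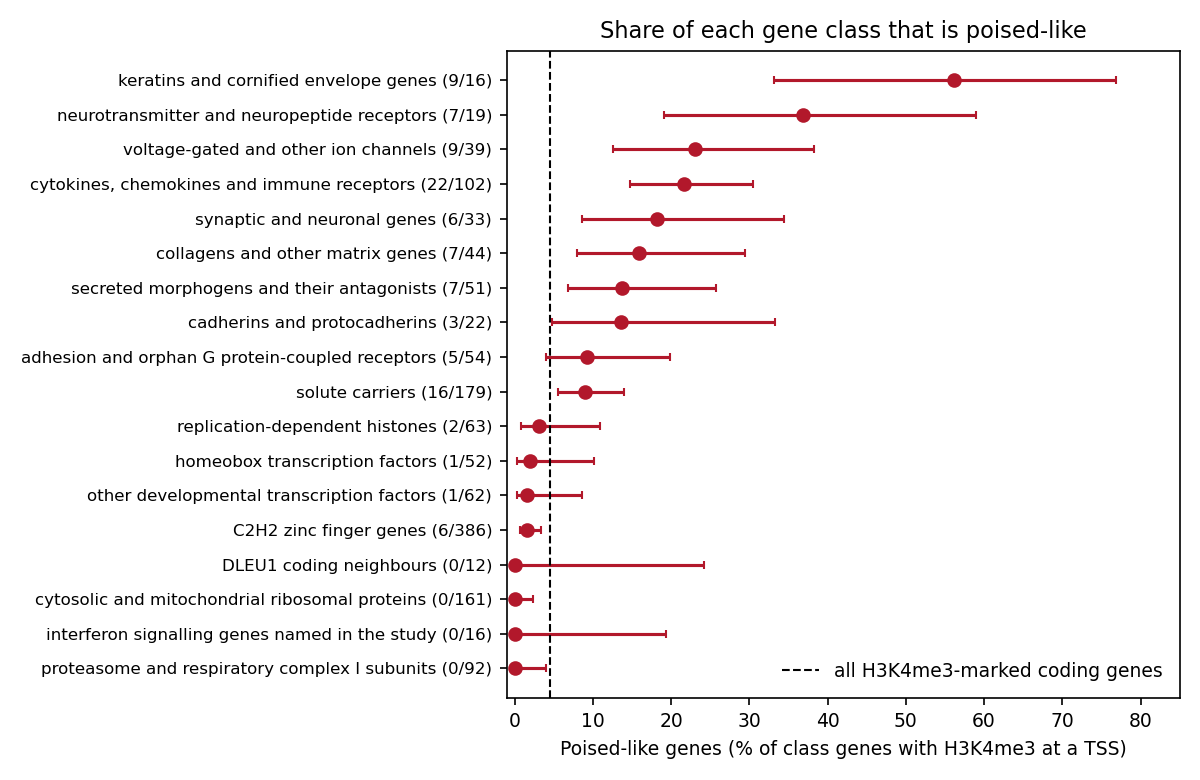
Percent of the genes of each class with control H3K4me3 at a TSS that were poised-like, with 95% Wilson intervals, for classes with at least 10 marked genes. Numbers after each class are poised-like over marked genes, and the dashed line is the 4.54% of all marked coding genes. Keratins stand at 56.2% and neurotransmitter receptors at 36.8%, while homeobox genes are at 1.92%, with an interval that crosses the line, and ribosomal proteins at 0. The share is over marked genes, so a class with few acetylated genes can stand high.

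In siDLEU1 cells, 66.4% of the unacetylated regions (65.1 to 67.7%) were overlapped by an H3K4me3 region, and 94.1% of the acetylated ones (93.7 to 94.5%). Over all 20554 TSS regions, 12.7% were not overlapped. The share was 66.8% (63.6 to 69.8%) at poised-like genes, 66.3% at genes acetylated elsewhere and 67.8% in unacetylated regions away from coding TSSs. The share was higher at higher strength. From the weakest to the strongest quintile of fold, the regions at poised-like genes were overlapped in 48.6%, 70.2%, 90.8%, 98.6% and 97.7%. The acetylated regions were overlapped in 67.8%, 89.4%, 98.9%, 99.8% and 100%. The groups thus stood apart in the weaker quintiles and met in the stronger ones, in the shallower of the libraries. Among the regions at poised-like genes that were overlapped, the median difference in percentile, siDLEU1 minus control, was 0.651, with quartiles of -15.1 and 15.4. In acetylated regions it was 1.23, with quartiles of -7.14 and 10.7.

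**Figure D3:**
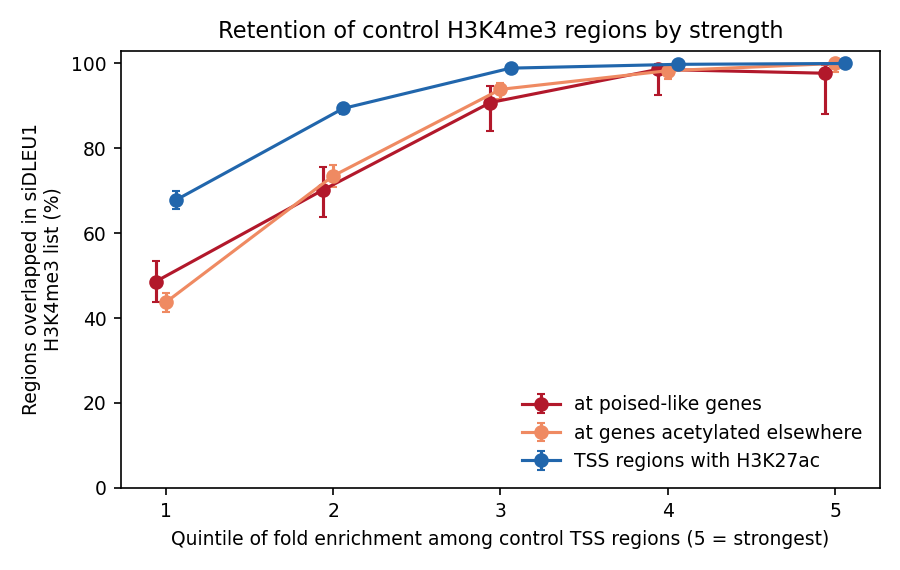
Percent of control TSS H3K4me3 regions overlapped by a siDLEU1 H3K4me3 region, by quintile of control fold enrichment, with 95% Wilson intervals. Regions at poised-like genes go from 48.6% in the weakest quintile to 97.7% in the strongest, and acetylated regions from 67.8% to 100%.

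Counted by gene, 411 of the 558 poised-like genes, 73.7%, had H3K4me3 at a TSS in siDLEU1 cells, against 98.1% of genes with both marks and 1.9% of genes with neither. The strongest region itself was overlapped at 394 genes, with a higher percentile at 184 and a lower one at 210 and a median difference of -0.957. Fragments were fewer in siDLEU1 cells at 259 of these genes, with a median ratio of 0.857 beside the library ratio of 0.787, and at 44 genes 1 siDLEU1 region covered several control regions. Of 86 genes whose region was in the strongest quintile of the control list, 85 kept it, and BMP7 was the exception. The BMP7 region, 2099 bp at chr20:55817782-55819880 over an alternative start, had 18.4-fold and 142 fragments in control cells and no counterpart in siDLEU1 cells. The next strongest without one were RSPH14, a radial spoke gene (79 fragments), ENSG00000248751 (55), FYB1, an adaptor of T cells (72), and SAA2, an acute phase protein (68), whose start is shared with the readthrough gene SAA2-SAA4. Its neighbour SAA1 had 81 control fragments and 28 in siDLEU1 cells, with percentiles of 71.4 and 15.5.

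The largest difference in rank, higher in siDLEU1 cells, was at TGM1, the transglutaminase that crosslinks the cornified envelope. Its control region was 291 bp wide with 27 fragments and percentile 10.3 (chr14:24733213-24733503). The overlapping siDLEU1 region was 3965 bp wide with 186 fragments and percentile 97.4, in the shallower library. SLC25A45, a mitochondrial carrier, went from percentile 26.2 to 99.1 and from 36 to 168 fragments, but a stronger control region under the same siDLEU1 region was already at 78.4, which leaves a difference of 20.7. Another SLC25A45 region, left out for its width of 3013 bp, was at 98.8 in control cells. RNASE7, an antimicrobial ribonuclease of skin, had percentiles of 10.8 and 81.2 and 29 and 79 fragments. PAX8, the thyroid and kidney homeobox factor, had 18.7 and 85.4 and 24 and 78 fragments. KLK11, a kallikrein protease, had 0.876 and 62.5 and 22 and 44 fragments. H3K27ac was not called within 1 kb of a TSS at any of these 5 genes in either list.

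The 5 genes with the largest differences in the other direction were VAMP5, a membrane fusion protein of muscle (percentiles 68 and 0.324, fragments 60 and 28), SYT15 (72.1 and 8.3, 91 and 39), ENSG00000289761 (65.1 and 2.03, 53 and 32), TENT5B, a poly(A) polymerase (63.4 and 2.03, 51 and 32), and ENSG00000188897 (80.2 and 19.1, 77 and 46). The local background that MACS2 sets against the signal differed beside them, at 0.532 to 1.2 in control and 2 in siDLEU1 cells at each of the 5 genes, on the scaled fragment count of the peak caller. Its part in these differences was not tested. Ranked by fragments alone, the differences were -35.2 at VAMP5, -32 at SYT15, -20.4 at ENSG00000289761, -18.5 at TENT5B and -16.7 at ENSG00000188897, each smaller in size than by fold. ALDH3B2, at percentiles 99.2 and 70.1, had a background of 0.532 in control and 3 in siDLEU1 cells, and 145 siDLEU1 fragments against 186.

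**Figure D4:**
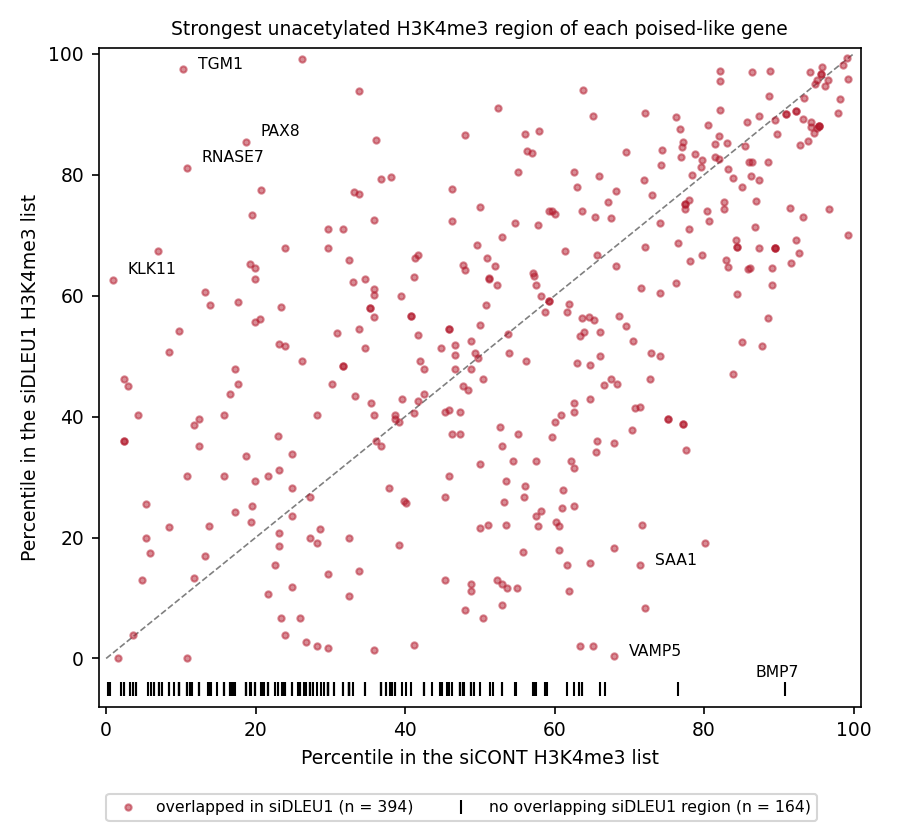
Percentile of the strongest unacetylated H3K4me3 region of each of the 558 poised-like genes in the siCONT list (x axis) against that of the overlapping siDLEU1 region (y axis). Each dot is one of 394 genes, ticks at the bottom are the 164 genes without an overlapping region, and the dashed line marks equal percentiles. TGM1, RNASE7, PAX8 and KLK11 lie far above the line, VAMP5 and SAA1 far below, and BMP7 is the single tick beyond percentile 80.

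Acetylation was rarely called at these regions in siDLEU1 cells, although that H3K27ac library was the deeper one. An H3K27ac region overlapped 57 of the 5051 regions, 1.13% (0.872 to 1.46%), of which 7 were at poised-like genes, against 87.8% of the regions acetylated in control cells. Over all 20554 TSS regions the share was 66.5%, but the rule itself set the control state, so a change could be seen in one direction only. Counted by gene, 11 of 558 poised-like genes, 1.97% (1.1 to 3.5%), had siDLEU1 H3K27ac within 1 kb of a TSS. Among all 7736 genes without control H3K27ac at a TSS the share was 0.362%, and among the 7159 with neither mark 0.237% (0.148 to 0.38%).

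All of these siDLEU1 H3K27ac regions were weak, at percentiles of 3.05 to 19 and 24 to 41 fragments. STING1, the adaptor of cytosolic DNA sensing, had strong H3K4me3, at percentile 95.2 in control and 95.6 in siDLEU1 cells, and its new H3K27ac region had 33 fragments and percentile 17.7. KLK9 and ENSG00000269741 shared one H3K27ac region of 28 fragments. PSORS1C1, of the psoriasis susceptibility locus, had 30 fragments, and CSTA, a protease inhibitor of the cornified envelope, had 24. CXCL8 had 28 fragments of H3K27ac, 120316 bp from the nearest control H3K27ac region. AKR1C1 and AKR1C2, near-identical aldo-keto reductases, had 36 and 24, DHRS4L2 41, TLE6, a corepressor, 34 and MYOM2, a sarcomere protein, 26. At TLE6 no H3K4me3 region was called in siDLEU1 cells, and at the other 10 genes one was.

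Applied to the siDLEU1 lists, the same rule gave 830 poised-like genes. Fewer H3K27ac regions could exclude a gene there, 17672 against 19705 in control cells. The part of this in the larger number was not tested, and its share of all genes marked in siDLEU1 cells was not computed. Of the 830 genes, 397 were poised-like in control cells too, which is 71.1% of the control genes and 47.8% of the siDLEU1 genes. Of the 433 others, 269 had both marks in control cells (2.3% of all genes with both marks), 129 had neither, 23 had H3K27ac alone and 12 had H3K4me3 in another form. Of the 161 control genes that left the group, 147 had no siDLEU1 H3K4me3 at a TSS and 11 had gained H3K27ac. The 269 included the chemokine CCL20, the desmosomal cadherin DSG3 and, of the interferon list described next, OAS1 and IFI6. At OAS1, the percentile of H3K27ac was 68.3 in control cells with none called in siDLEU1 cells, and that of H3K4me3 was 94.6 and 38.7. At IFI6 the H3K27ac percentile was 63 with none called after, and the H3K4me3 percentiles were 71.1 and 6.77.

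Of the 17 interferon signalling genes of a list the study itself chose, 16 carried both marks in control cells and IRF4, a lymphoid factor, had neither. The study came to interferon signalling through genes selected for decreased H3K27ac in these same cells after the knockdown. Lower H3K27ac at listed genes in siDLEU1 cells may therefore be set in part by that selection. The study also reported lower H3K27ac at representative interferon genes by ChIP-qPCR with another siRNA against DLEU1. It further reported lower expression of such genes in OSCC cell lines after knockdown, and higher expression and H3K27ac with ectopic DLEU1. Those experiments were not examined here. None of the 16 was poised-like (0 to 19.4%), an interval that includes the 4.54% of all. In siDLEU1 cells, H3K27ac was not called at a TSS of 5 of these 16 genes, and at 3 of them, XAF1, OASL and MX2, H3K4me3 was not called either. Of all 11717 genes with both marks, 96.9% had H3K27ac and 98.1% had H3K4me3 at a TSS in siDLEU1 cells. Higher and lower percentiles were not counted over all these genes. Among the listed genes, the H3K27ac percentile was lower at 8 and higher at 3, which were IFITM3 (71.5 and 98.6), ADAR (81.1 and 99.1) and IRF9 (43.6 and 50.2). Outside that list and named after their values were seen, STING1, ISG20, UBA7 and GBP6, all genes of interferon responses, were poised-like in control cells. Others of this kind, such as IFI44, DHX58, RTP4 and GBP2, carried both marks there. Interferon response genes outside the list were not counted as a class. Unacetylated regions were present at starts of 6 of the 16 listed genes, MT2A, IFI6, IFITM3, IFI27, MX2 and IRF9, all with H3K27ac at a TSS as well. Of 15 coding neighbours of DLEU1 on chromosome 13, 12 carried both marks and none was poised-like, and WDFY2 alone had an unacetylated region at one of its starts.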

How the data were processed

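H3K4me3 and H3K27ac ChIP-seq of HSC3 cells, 72 h after siCONT or siDLEU1, was examined with 1 library per siRNA and mark. According to the labels and the methods of the study, reads from an Ion Proton sequencer were aligned to hg19 by bowtie2, and peak calling by MACS2 gave 4 lists that the authors deposited. Each deposited list holds the fold ratio, the −log10 p-value and the −log10 q-value as MACS2 writes them, and their score was left aside. The MACS2 settings and control library are not given in the sources used here, and 2 input libraries have no list here and were not analysed.

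Regions on chromosomes 1 to 22 and X counted as overlapping when they shared 1 bp. TSSs were those of all transcripts of 20098 protein-coding genes of the GENCODE annotation on GRCh37, with a window of 1 kb on either side, and CpG and motifs were read from the GRCh37 sequence. Fragments at summits were recovered from fold and p, within a tolerance of 0.004 on the scaled fragment count. Recovery, overlap and motif functions were tested on simulated data. No test was run because there is 1 library per condition, and intervals are 95% Wilson intervals. The members, gene lists and motifs were chosen with earlier results of these data known. Genes named were, by rule, up to 3 of the strongest poised-like genes of each class, the 10 strongest and 5 widest, those with siDLEU1 H3K27ac, the 5 largest differences in rank in either direction, the 5 strongest without a siDLEU1 region, the interferon list, the neighbours of DLEU1, markers and genes at the limits. Others were named after their values were seen. Alternatives were other TSS sets, windows, thresholds on q, overlaps and ranks. Python 3.11.15, numpy 2.4.6 and pandas 2.3.3 were used.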

Additional observations from a re-analysis of the deposited data

How the results depend on the processing

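No paired analysis was possible because each siRNA and mark has 1 library, and no library could be left out. The 5051 unacetylated regions became 1792 with 1 TSS per gene, 1523 when H3K4me3 regions had to reach a −log10 q of 10, and 3325 with no H3K27ac within 1 kb of the region. The 558 poised-like genes became 211 at that q and 1000 when only H3K27ac regions with a −log10 q of at least 10 could exclude a gene. Other TSS sets, windows of 500 bp and 2 kb and no width limit gave 424 to 691 genes, and genes with a curated RefSeq transcript alone, added after seeing the data, gave 516.

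With 1 TSS per gene, 3.68% of all marked genes, 4.91% of solute carriers and 0% of homeobox genes were poised-like. When H3K4me3 regions had to reach a −log10 q of 10, the shares were 2.03% of all marked genes, 9.52% of ion channels, 3.4% of solute carriers, 0.635% of C2H2 zinc finger genes and 0% of homeobox, orphan receptor, matrix and histone genes. Keratins were then at 36.4% and immune genes at 14.9%.

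The 66.4% of unacetylated regions overlapped in siDLEU1 cells became 44.7% with an overlap of 50% of both regions, 73.2% with a −log10 q of at least 10 in both lists and 81.8% as a mean over quintiles of strength. The 94.1% of acetylated regions became 79%, 92.6% and 91.2%. The median difference in percentile of the unacetylated regions, 0.382, was -0.782 by fragments. With H3K27ac within 1 kb counted, 1587 unacetylated regions had it in siDLEU1 cells in place of 57. In control cells 1726 of the 5051 already had H3K27ac within 1 kb, so the 1587 are not a count of gains. Overlap with siDLEU1 H3K27ac at a −log10 q of at least 10 was found at 16 regions. Poised-like genes with siDLEU1 H3K27ac went from 11 to 19 with a 2 kb window and to 0 at that q. The median strength of 39.2 was 39.6 with −log10 p as the rank, and the median CpG ratio of 0.267 was 0.267 over the whole region.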

Other observations

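Several gene families were looked at after their values had been seen. S100 genes, small calcium-binding proteins encoded together on chromosome 1 for the most part, were poised-like in 7 of 16 marked cases, 43.8% (23.1 to 66.8%). S100A12 had 92 control and 68 siDLEU1 fragments, S100A4 117 and 86, S100P 87 and 58, S100A9 105 and 107, S100A3 81 and 39, S100A8 63 and 43 and S100A5 35 and 42. All 7 had H3K4me3 and none had H3K27ac at a TSS in siDLEU1 cells. Kallikreins gave 3 of 6, mucins 2 of 4, claudins 2 of 8, serpins of family B 2 of 6, aldehyde dehydrogenases 3 of 15, transmembrane serine proteases 1 of 2 and cytochrome P450 genes 5 of 16, against 4.54% of all marked genes. CLDN4, a tight junction protein, had 124 and 76 fragments, MUC20, a membrane mucin, 168 and 74, and LCN2, an iron carrier of innate immunity, 193 and 65.

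Some poised-like genes were neighbours, which was not compared with other coding genes. With neighbouring starts within 100 kb, 33 genes fell into 8 runs of at least 4 genes, several of which share regions. One run on chromosome 1 held PGLYRP4, S100A9, S100A12 and S100A8, with 4 distinct regions between the starts at 153321316 and 153363452. Another on chromosome 19 held KLK6, ENSG00000269741, KLK9 and KLK11, with 3 distinct regions. TGM1, LTB4R2, CIDEB and LTB4R formed a run on chromosome 14 with 2 regions, since the last 3 genes share one.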
